A study of Homo sapiens with 19 samples.

Results

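The genes examined were ATF4, DDIT3, DDIT4, TRIB3, CHAC1, ASNS, SESN2, PSAT1, PHGDH and SLC7A11, which take part in the response of cells to a shortage of amino acids. They were chosen by symbol, and all 10 were present among the 23441 gene symbols of the count table. Of these, 9 passed the filter on low counts, as did 14225 genes in all, whilst PHGDH did not.

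The cells were 786-O, an established renal carcinoma line of the clear cell type without functional VHL, the factor that marks HIF-α proteins for degradation. They make HIF-2α but no wild-type HIF-1α, and the paper reports truncated or fused HIF-1α transcripts in them. Pools of these cells, not single clones, had been transduced with lentivirus carrying the empty vector pRRL (control cells), HIF-1α (HIF-1α re-expressing cells) or HIF-2α (HIF-2α overexpressing cells). All were grown in the same medium with foetal calf serum and L-glutamine. Polyadenylated RNA was sequenced from 3 libraries per pool, numbered 1 to 3. ChIP-seq mapped the binding of HIF-2α and of HIF-1β, the partner of both HIF-α proteins, in every pool. HIF-1α was mapped in the HIF-1α re-expressing cells only, and each antiserum and pool had 1 library. The methods state that total RNA was prepared in triplicate, but the labels do not say that libraries of 1 pool came from separate cultures. The p-values of comparisons between pools measure the spread between these libraries, which may be technical. Libraries that share a number are called a round, and the labels do not say what the number marks.

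When an amino acid runs short, uncharged tRNA activates the kinase GCN2, which phosphorylates the translation factor eIF2α. Protein synthesis then falls in general, but translation of ATF4 increases, and this transcription factor raises genes for amino acid uptake and synthesis. Stress in the endoplasmic reticulum reaches the same factor through the kinase PERK, and at some of its targets ATF4 pairs with C/EBP proteins on a composite site, the C/EBP-ATF response element. Much of the control of ATF4 therefore lies in its translation, which RNA-seq does not measure.

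Promoter windows from RefSeq (GRCh38.p14), from 250 bases before to 50 bases after the start site, were given for 9 of the 10 genes (14 windows), and SLC7A11 had none. The response element was searched as TGATGNAA on both strands and was found in ASNS and CHAC1. Both matches are shown. DDIT3, SESN2 and PSAT1, which like these 2 genes differed between rounds, had none. The windows were placed on GRCh37 by exact match, each is printed 5′ to 3′ in the direction of the gene, and the capitals mark the match.
ASNS, chr7:97501751-97501818, minus strand, bases -98 to -31 from the start site: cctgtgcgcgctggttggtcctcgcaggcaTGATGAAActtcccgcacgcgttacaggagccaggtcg
CHAC1, chr15:41245430-41245497, plus strand, bases -239 to -172 from the start site: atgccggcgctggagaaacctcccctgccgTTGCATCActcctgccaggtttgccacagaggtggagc
In ASNS the match reads along the gene and in CHAC1 on the opposite strand. The element was found in 3.62% of all 35116 windows of the same length and in 2.15% of those of tested genes. A match is a description of the sequence and not evidence of a bound site, and elements outside these windows were not searched.

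DDIT4 is the gene of this group best known as a HIF target, and its promoter is shown for its HRE cores, searched as ACGTG or GCGTG on both strands. The window held 4 of them, in capitals here.
DDIT4, chr10:74033453-74033721, plus strand, bases -229 to 39 from the start site: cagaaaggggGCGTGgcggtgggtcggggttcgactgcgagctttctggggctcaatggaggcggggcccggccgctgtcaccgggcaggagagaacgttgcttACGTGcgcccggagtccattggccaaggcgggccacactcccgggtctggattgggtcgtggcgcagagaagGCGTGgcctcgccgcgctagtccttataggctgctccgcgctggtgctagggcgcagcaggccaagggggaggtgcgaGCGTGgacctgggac
An HRE core was present in 12 of the 14 windows of these genes, covering 7 of the 9 genes, against 48.4% of all windows and 59.2% of those of tested genes.

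Library totals lay between 27852754 and 54287621 counts, and all values below are counts per 1000000 (CPM) scaled with edgeR's TMM factors. After re-expression HIF1A was at 171, 1682 and 473 CPM in libraries 1, 2 and 3 and at 15.3 to 36.7 CPM in the other pools, except in control replicate 3 with 151.6 CPM. Without that library 6 of the 9 genes were again called between rounds and 0 between pools in the tests described below. EPAS1, the gene of HIF-2α, was at 946, 3244 and 880 CPM in the HIF-2α overexpressing cells and at 162 to 456 CPM in the control cells. Of the renal markers PAX8, PAX2, CDH6, CA9, VIM, KRT8 and KRT18, none was at 0 throughout, and the summed level of 5 immune markers and of 5 endothelial markers stayed at or under 1.62 CPM in every library.

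Levels of different genes were compared per kilobase of exon, with the exons of all annotated transcripts merged (GENCODE on GRCh37). DDIT4, an inhibitor of mTORC1 also known as REDD1, had the highest mean level over the 9 libraries, at 382 CPM per kb. ATF4 followed with 208, the serine synthesis enzyme PSAT1 with 133 and TRIB3, a pseudokinase that restrains ATF4, with 101 CPM per kb. ASNS had 30.6, DDIT3 28.8, SESN2 19.8, SLC7A11 14.6 and CHAC1 7.50 CPM per kb. The ranges of neighbouring genes in this order overlapped, except for CHAC1 and PHGDH. Within libraries DDIT4 lay above ATF4 in 9 of 9, but PSAT1 above TRIB3 in only 5 of 9 and ASNS above DDIT3 in 4 of 9.

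The first comparison was between the rounds. The libraries of round 1, in all 3 pools, held several times more RNA of the amino acid synthesis, transport and glutathione genes of this group than those of rounds 2 and 3. CHAC1, SLC7A11, PSAT1, ASNS, DDIT3 and SESN2 differed between rounds, all 6 were highest in round 1, and their differences on the log2 scale ran from 1.56 to 3.41. ATF4, TRIB3 and DDIT4 did not pass the test. The test was edgeR's quasi-likelihood F test of the round terms together, with the pool in the model and Benjamini-Hochberg adjusted p-values over all 14225 genes at a threshold of 0.05. It called 6 of the 9 genes tested, against a background of 15.4% of all genes called and 5.91% called and highest in round 1. Its p-values measure how far the round differences varied among the 3 pools. Each round occurred once, so they do not tell how such a difference would recur. The 3 libraries of round 1 lay above all 6 others in those same 6 genes, and in 6.41% of all tested genes.

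**Figure D1:**
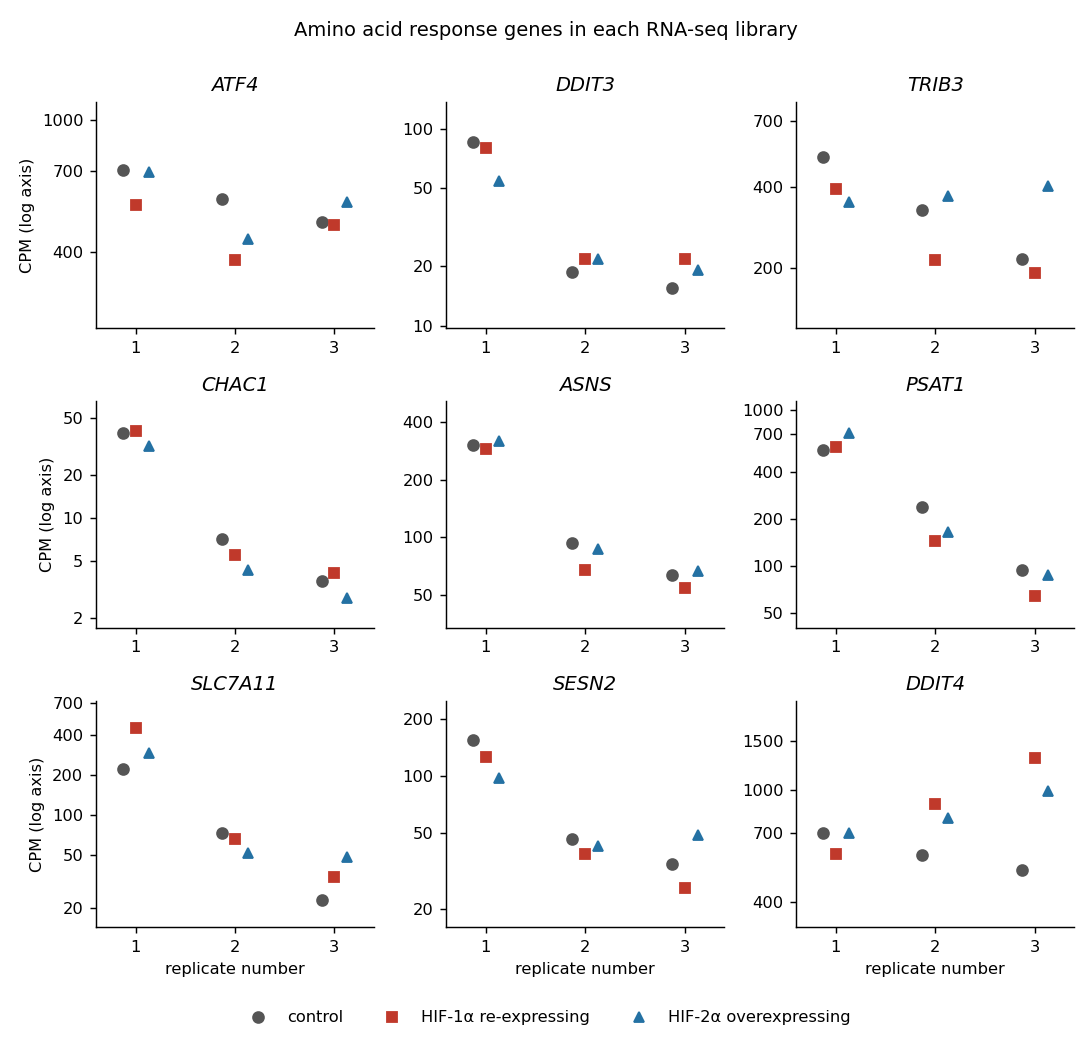
CPM on a log axis for each of the 9 tested genes, plotted by replicate number, with 1 point per library (circles control, squares HIF-1α re-expressing, triangles HIF-2α overexpressing). In DDIT3, CHAC1, ASNS, PSAT1, SLC7A11 and SESN2 the 3 points of round 1 lie above the other 6, and in DDIT4 they do not.

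ATF4 itself (chr22:39915700-39918688) was at 709, 579 and 493 CPM in control libraries 1, 2 and 3, at 553, 379 and 485 CPM in the HIF-1α re-expressing cells and at 698, 437 and 568 CPM in the HIF-2α overexpressing cells. The rounds overlapped, since control library 2 was above library 1 of the HIF-1α re-expressing cells. Round 1 minus round 2 was 0.50 ± 0.18 (log2, SE) and round 1 minus round 3 was 0.33 ± 0.18, with adjusted p = 0.158 from edgeR.

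DDIT3 encodes CHOP, a transcription factor that dimerises with C/EBP proteins and with ATF4. Its CPM was 85.7, 18.7 and 15.6 in the control cells, 80.3, 21.8 and 21.8 in the HIF-1α re-expressing cells and, after HIF-2α overexpression, 54.4, 21.7 and 19.1. Every library of round 1 was thus above 50 CPM and every other library below 22 CPM. The difference was 1.82 ± 0.22 (log2, SE) from round 2 and 1.96 ± 0.22 from round 3 (edgeR, adjusted p = 0.00143). The gene (chr12:57910371-57915520) shares 355 exonic bases with MARS1, listed as MARS, on the opposite strand, and although the libraries are directional the strand setting of the counting is not given in the sources used here. MARS was also higher in round 1, by 1.03 on the log2 scale against round 2, and its part in the DDIT3 counts was not tested.

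TRIB3 (chr20:343479-378203) was at 516, 328 and 218 CPM in the control cells and at 393, 215 and 193 CPM in the HIF-1α re-expressing cells. In the HIF-2α overexpressing cells it was at 351, 371 and 404 CPM. Round 1 was highest in the first 2 of these pools and lowest in the HIF-2α overexpressing cells, and the rounds overlapped. Across pools the difference was 0.52 ± 0.27 (log2, SE) from round 2 and 0.70 ± 0.27 from round 3, with adjusted p = 0.162 by edgeR. Without library 1 of the HIF-2α overexpressing cells TRIB3 passed the test, with a log2 range of 1.05 between rounds and an adjusted p of 0.0432 (edgeR).

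CHAC1 degrades glutathione and is a known transcriptional target of ATF4. It was at 38.8, 7.11 and 3.62 CPM in the control cells, at 40.5, 5.49 and 4.10 CPM in the HIF-1α re-expressing cells and at 31.7, 4.36 and 2.75 CPM in the HIF-2α overexpressing cells. Round 1 did not overlap with the other rounds, its lowest library being at 31.7 CPM and the highest library elsewhere at 7.11 CPM. The difference was 2.72 ± 0.21 (log2, SE) from round 2 and 3.41 ± 0.21 from round 3 (edgeR, adjusted p = 0.000159), the largest of the 9 genes in both.

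ASNS makes asparagine from aspartate and glutamine. Its CPM was 304, 93.7 and 63.4 in the control cells, 290, 67.7 and 54.3 in the HIF-1α re-expressing cells and, after HIF-2α overexpression, 319, 87.3 and 67.2. The 3 libraries of round 1 lay close together and apart from the rest. The difference was 1.89 ± 0.16 (log2, SE) from round 2 and 2.31 ± 0.17 from round 3 (edgeR, adjusted p = 0.000319). ASNS (chr7:97480989-97501854) shares 2415 exonic bases with another GENCODE transcript unit on its own strand. Reads were counted on UCSC genes, and the effect of this overlap on the ASNS counts was not tested.

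PSAT1, which transaminates phosphohydroxypyruvate in the synthesis of serine, was at 555, 238 and 93.8 CPM in the control cells. It was at 579, 144 and 64.4 CPM in the HIF-1α re-expressing cells and at 708, 165 and 87.2 CPM in the HIF-2α overexpressing cells. All 3 rounds were apart from one another, with round 2 above round 3 in every pool. The log2 difference from round 2 was 1.78 ± 0.21 (SE), that from round 3 was 2.93 ± 0.22, and edgeR gave an adjusted p of 0.000397. Round 3 minus round 2 was -1.15 ± 0.21.

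PHGDH, the enzyme that commits glycolytic carbon to serine, was close to absent. It had 3, 19 and 3 counts in library 1 of the control, HIF-1α re-expressing and HIF-2α overexpressing cells, and 0 counts in the other 6 libraries. A count of 0 over the 3 libraries of a round allows up to 3 counts, which is 0.0294 CPM for round 2 and 0.0226 CPM for round 3, counting error only. No fold change is given for a gene this low. The step before PSAT1 was therefore hardly measurable, whilst the 3 libraries with any PHGDH counts were those of round 1.

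SLC7A11, the cystine importer xCT, was at 222, 73.7 and 23.0 CPM in the control cells, at 453, 65.7 and 34.2 CPM in the HIF-1α re-expressing cells and at 293, 52.1 and 48.8 CPM in the HIF-2α overexpressing cells. Round 1 stood above the other rounds in each pool, and its own libraries spread more than those of ASNS. The difference was 2.27 ± 0.31 (log2, SE) from round 2 and 3.18 ± 0.33 from round 3 (edgeR, adjusted p = 0.00131). It shares 865 exonic bases with SLC7A11-AS1 on the opposite strand, and reads of the pair cannot be told apart without the strand setting.

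SESN2 is a leucine sensor that restrains mTORC1 through GATOR2. Its CPM was 155, 46.6 and 34.4 in the control cells, 125, 39.2 and 25.8 in the HIF-1α re-expressing cells and, after HIF-2α overexpression, 98.1, 43.0 and 48.8. Round 1 was again apart from the rest, at 98.1 CPM or more against 48.8 CPM or less. The difference was 1.56 ± 0.25 (log2, SE) from round 2 and 1.81 ± 0.25 from round 3 (edgeR, adjusted p = 0.00395).

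DDIT4 went its own way. It was at 701, 585 and 518 CPM in the control cells, at 592, 895 and 1298 CPM in the HIF-1α re-expressing cells and at 704, 797 and 991 CPM in the HIF-2α overexpressing cells. The control cells were highest in round 1 and both other pools highest in round 3. The difference of round 1 was -0.13 ± 0.27 (log2, SE) from round 2 and -0.39 ± 0.27 from round 3, and it did not pass the test (edgeR, adjusted p = 0.496).

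**Figure D2:**
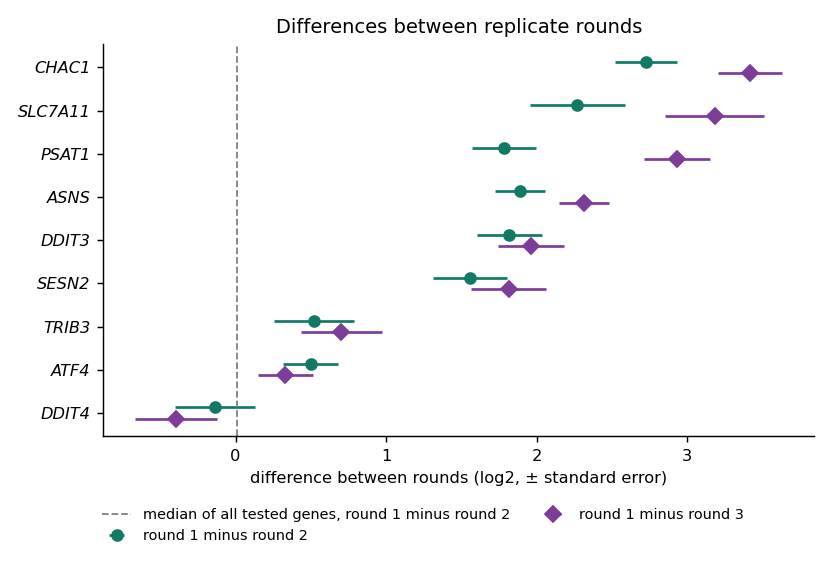
Differences of round 1 from rounds 2 and 3 on the log2 scale, with standard errors from edgeR, for the 9 tested genes; the dashed line is the median of all tested genes for round 1 minus round 2. CHAC1 lies at 2.72 and 3.41, DDIT4 at -0.13 and -0.39.

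The median difference of the 9 genes was 1.78 from round 2 and 1.96 from round 3 on the log2 scale, against 0.0080 and 0.00053 over all tested genes. Round 3 minus round 2 had a median of -0.26 in the group, and beside PSAT1 it was -0.91 ± 0.31 (log2, SE) in SLC7A11, -0.69 ± 0.20 in CHAC1 and -0.42 ± 0.16 in ASNS. In DDIT3, SESN2, TRIB3 and ATF4 the same difference was about the size of its standard error or smaller.

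The variation of log2(CPM + 1) over the 9 libraries was divided into a part between rounds, a part between pools and the rest. Rounds accounted for 98.1% in ASNS, 97.9% in CHAC1, 96.2% in PSAT1, 94.6% in DDIT3, 92.9% in SLC7A11 and 89.6% in SESN2. In these 6 genes the pools accounted for 2.54% at most. The share of the rounds was 56.5% in ATF4, 39.3% in TRIB3 and 16.9% in DDIT4, and DDIT4 alone of the 9 had a larger share between pools (38.6%) than between rounds. Over all tested genes the median share was 35.8% between rounds and 32.6% between pools.

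**Figure D3:**
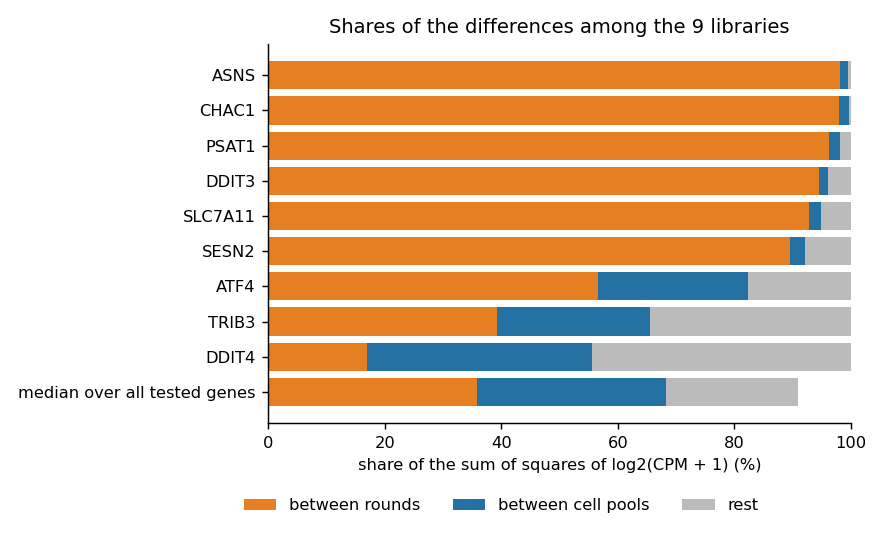
Share of the sum of squares of log2(CPM + 1) between rounds, between cell pools and remaining, in percent, for the 9 tested genes and as medians over all 14225 tested genes (the 3 medians are taken separately and do not add up to 100). The share between rounds is 98.1% in ASNS and 16.9% in DDIT4.

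As a description over the 9 libraries, which share their rounds and scaling, the 6 genes that differed between rounds correlated with one another with Pearson's r of 0.868 to 0.976 (15 pairs). They were picked by that difference in the same libraries, so high correlations among them follow in large part from the choice. ATF4 had r of 0.592 to 0.727 with these 6, TRIB3 0.574 to 0.802 and DDIT4 -0.520 to -0.234. Among the other tested genes, those most like the mean profile of the group were CARS (r = 0.990) and IARS (r = 0.989), which charge the tRNAs of cysteine and isoleucine, HTR7 (0.984), GPR1 (0.980) and SEC23B (0.979), which encodes a coat protein of vesicles leaving the endoplasmic reticulum. CARS was at 123 to 137 CPM in round 1 and at 57.5 to 71.5 CPM elsewhere.

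Related lists, without the genes above, were counted in the same test. They were chosen with earlier results of these data known. All 12 listed aminoacyl-tRNA synthetases were called and highest in round 1, against 5.91% of all tested genes. The same held for 9 of 10 listed enzymes of serine, glycine, proline and one-carbon metabolism. It also held for 11 of 12 chaperones and folding genes of the endoplasmic reticulum. Of the bZIP partners and ATF4-regulated factors 6 of 10 were called and highest in round 1, and of the amino acid transporters 4 of 7. In the list of eIF2α kinases, their regulators and phosphatase subunits 3 of 8 were, namely the GCN2 activator GCN1L1, the GCN2 inhibitor IMPACT and the phosphatase subunit PPP1R15A, but none of the 4 kinases. In the mTORC1 list 1 of 8 was, EIF4EBP1, which is a substrate of mTORC1 and not an input. Of 12 HIF target genes, none was called highest in round 1 and EGLN3 was called lowest in it. Medians of round 1 minus round 2 were 1.38 on the log2 scale for the folding genes, 0.99 for the synthetases and -0.58 for the HIF targets, against 0.0080 over all genes. Against round 3 they were 1.36, 1.40 and only -0.10, with 0.00053 over all genes.

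By smallest p, the leading genes of these lists were SLC6A9, WARS, HYOU1 and CBS. SLC6A9, a glycine transporter, had a mean of 31.8 ± 9.80 CPM in round 1 (SD, n = 3), 5.10 ± 2.70 in round 2 and 1.92 ± 1.40 in round 3 (edgeR, adjusted p = 0.000370). WARS, the tryptophanyl-tRNA synthetase, had 363 ± 102 CPM in round 1, 91.5 ± 2.52 in round 2 and 73.3 ± 3.42 in round 3. HYOU1, an endoplasmic reticulum chaperone, had 862 ± 137, 270 ± 51.7 and 177 ± 22.7 CPM, and CBS, which makes cystathionine from serine and homocysteine, 91.7 ± 19.3, 22.7 ± 2.44 and 29.2 ± 6.66 CPM. The kinase of the amino acid branch, EIF2AK4 (GCN2), did not pass the test (0.29 ± 0.19 and 0.74 ± 0.19 on the log2 scale, adjusted p = 0.0633), and neither did EIF2AK3 (PERK), at -0.07 ± 0.21 and 0.47 ± 0.21 (edgeR, adjusted p = 0.169).

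**Figure D4:**
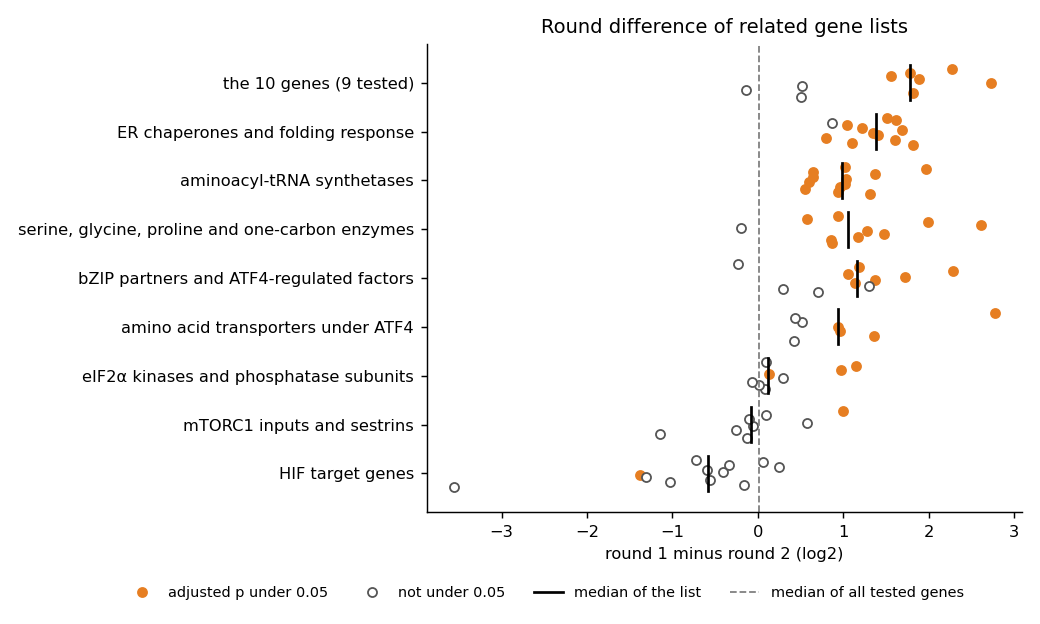
Round 1 minus round 2 (log2) for each tested gene of the 10 genes and of 8 related lists; filled points have an adjusted p under 0.05 in the test of rounds, bars are list medians and the dashed line is the median of all tested genes. The 12 listed aminoacyl-tRNA synthetases are all filled and to the right of 0, and the HIF target genes have a median of -0.58. Against round 3 the median of the HIF target genes, not drawn, was -0.10.

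Other features moved with the rounds. Of the 7 renal markers, CDH6 and PAX2 were called and lowest in round 1. CA9 was also lowest there, without passing the test (edgeR, adjusted p = 0.0744). PAX8, KRT8 and KRT18 had their highest fitted level there without passing it. Summed, all 7 were at 4856 to 6370 CPM in round 1 and 4565 to 6858 CPM in round 2. In round 3 the sum was 6228 to 7165 CPM. VIM carried most of it, with means of 4831, 4738 and 5557 CPM in rounds 1, 2 and 3. CDH6 was at 27.0 ± 11.6 CPM in round 1 (SD, n = 3) and at 183 ± 153 and 335 ± 174 CPM in rounds 2 and 3, and edgeR gave an adjusted p of 0.00280. PAX2 differed by -0.82 ± 0.19 (log2, SE) from round 2 and -1.06 ± 0.19 from round 3 (edgeR, adjusted p = 0.0181). The 5 fibroblast markers summed to 1.54 to 2.64 CPM in round 1, to 4.81 to 7.79 CPM in round 2 and to 9.64 to 18.2 CPM in round 3. LUM and COL1A1 carried most of these fibroblast sums, and DCN, PDGFRA and COL3A1 stayed at or under 0.443 CPM in every library. HIF1A in the re-expressing cells was lowest in round 1. The part of these differences, and of whatever the replicate number marks, in the levels of the amino acid response genes was not tested. In RNA of whole cultures, more expressing cells and more RNA per cell cannot be told apart.

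The second comparison was between the pools. No gene of the group was called in any of the 3 comparisons by edgeR's quasi-likelihood test with the pool as the only term, and none had an unadjusted p under 0.05. The background is as low: 0% of all tested genes were called for HIF-1α re-expressing against control cells, 0% for HIF-2α overexpressing against control cells and 0.0492% between both virus-expressing pools. At an unadjusted p under 0.05 there were 1586 genes higher and 1171 lower in the HIF-1α re-expressing cells, 476 higher and 362 lower in the HIF-2α overexpressing cells, both against the same 3 control libraries. DESeq2, with which 753 and 65 genes passed in these comparisons, also called none of the 9.

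With the replicate number as a block, 7.96%, 0.267% and 5.93% of all tested genes were called in the 3 comparisons, but again none of the 9. In that fit 1 gene had an unadjusted p under 0.05 in 1 comparison, CHAC1 in the HIF-2α overexpressing cells, at -0.47 ± 0.20 (log2, SE) with an adjusted p of 0.330 (edgeR). The standard errors of the 6 genes that differed between rounds were 0.68 to 1.17 on the log2 scale against the control cells in the fit without the block, and 0.16 to 0.30 with it.

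Compared within rounds, the HIF-1α re-expressing cells had lower levels than the control cells in all 3 rounds for ATF4, TRIB3, ASNS and SESN2, which is 4 of 9, against 25.0% of all tested genes. None of the 9 was higher in all 3 rounds, against 29.0% of all genes. The ratio within rounds 1, 2 and 3 was 0.952, 0.722 and 0.857 for ASNS and 0.781, 0.654 and 0.983 for ATF4. With the block, ASNS had a log2 difference of -0.25 ± 0.16 (SE, adjusted p = 0.285 by edgeR) and ATF4 of -0.34 ± 0.18 (adjusted p = 0.227). The groups overlapped in all 9 genes, where 12.9% of all genes lay higher and 11.2% lower without overlap.

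The HIF-2α overexpressing cells had a higher level of DDIT4 in all 3 rounds and a lower level of CHAC1, against 19.7% of all genes higher and 19.4% lower. DDIT4 was also the only gene of the 9 whose libraries did not overlap between these pools, from 704 to 991 CPM against 518 to 701 CPM, where 6.0% of all genes lay higher and 5.19% lower without overlap. The nearest libraries of the pools, at 704 and 701 CPM, were almost equal. The ratio of CHAC1 within rounds was 0.817, 0.613 and 0.759.

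**Figure D5:**
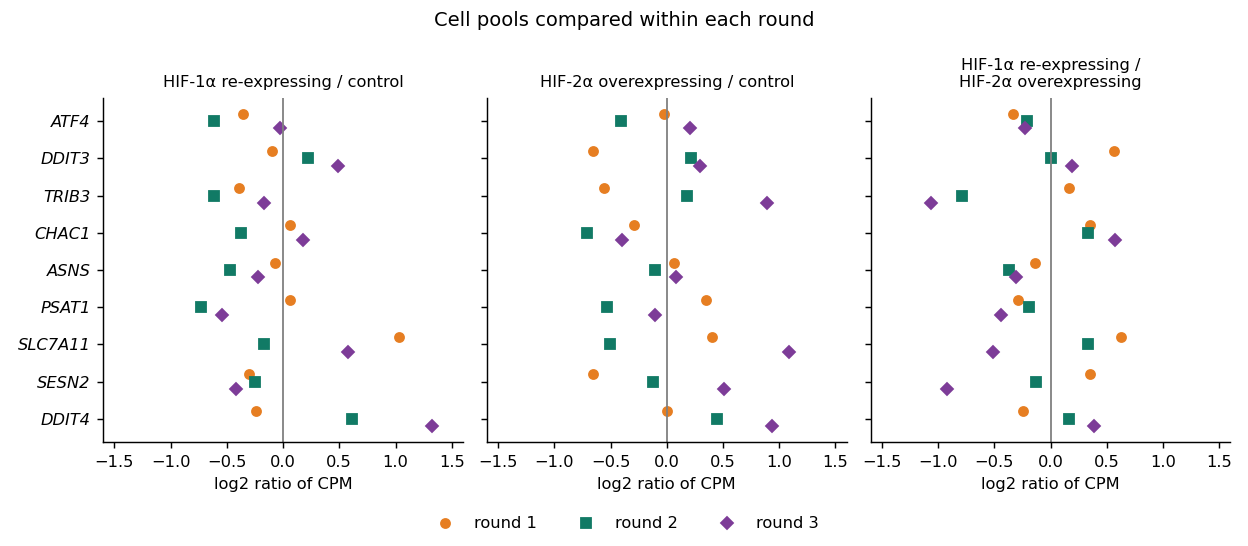
Log2 ratio of CPM between cell pools within each round, with 1 point per round for each tested gene; the grey line marks equal levels. DDIT4 in HIF-1α re-expressing over control cells lies left of the line in round 1 and right of it in rounds 2 and 3.

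Between HIF-1α re-expressing and HIF-2α overexpressing cells, DDIT3 and CHAC1 were higher in all 3 rounds in the former (25.3% of all genes), and ATF4, ASNS and PSAT1 lower (24.1%). DDIT3 was equal to within a ratio of 1.001 in round 2. The groups overlapped in all 9 genes, against 10.4% of all genes that lay higher and 8.82% lower without overlap. TRIB3 had ratios of 1.12, 0.578 and 0.478, so that rounds 2 and 3 were on the other side of 1 from round 1, and a log2 difference of -0.60 ± 0.27 (SE) with the block (edgeR, adjusted p = 0.207).

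DDIT4 differed most between the HIF-1α re-expressing and the control cells by p, at 0.63 ± 0.30 (log2, SE, edgeR adjusted p = 0.288) and at 0.56 ± 0.27 with the block (adjusted p = 0.182). The ratio within rounds was 0.845, 1.53 and 2.50. The same ratio of the HIF-2α overexpressing cells was 1.00, 1.36 and 1.91, from the same control libraries. In the HIF-1α re-expressing cells HIF1A was 5.64, 45.8 and 3.12 times the control level in these rounds, with the raised control library in the last. EPAS1 in the same cells was 1.26, 2.80 and 2.45 times the control level. With the block its log2 difference was 0.95 ± 0.43 (SE, edgeR adjusted p = 0.154). The part of the HIF1A and EPAS1 levels in the ratio of DDIT4 was not tested. With the block and without control replicate 1, DDIT4 passed the test at 0.87 ± 0.25 (log2, SE, edgeR adjusted p = 0.0483).

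For SLC7A11 the ratio between pools also varied with the round. Its level in the HIF-1α re-expressing cells was 2.04, 0.891 and 1.49 times that of the control cells in rounds 1, 2 and 3. After HIF-2α overexpression it was 1.32, 0.707 and 2.13 times. The direction thus differed between rounds in both comparisons. The log2 difference with the block was 0.46 ± 0.30 (SE, edgeR adjusted p = 0.310) after HIF-1α re-expression and 0.33 ± 0.30 (adjusted p = 0.631) after HIF-2α overexpression.

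The median log2 difference of the 9 genes was -0.16 for the HIF-1α re-expressing cells, 0.04 for the HIF-2α overexpressing cells and 0.0039 between them, against 0.04, -0.02 and 0.02 over all genes. With the block the medians of the 9 genes were -0.25, -0.05 and -0.25, against 0.04, -0.01 and 0.01 over all genes, so that 2 of the 3 changed sign. Of the related lists, no gene passed the fit without the block. The leading genes by p were VLDLR (1.32 ± 0.27, log2, SE), the mitophagy receptor BNIP3 (1.94 ± 0.51), the collagen prolyl hydroxylase P4HA1 (1.01 ± 0.29) and ATF5 (-1.25 ± 0.38) for HIF-1α re-expressing against control cells, with edgeR adjusted p from 0.149 to 0.166. For HIF-2α overexpressing against control cells they were the mTORC1 subunit RPTOR (1.08 ± 0.24), NDRG1 (1.59 ± 0.40), the glucose transporter SLC2A1 (1.12 ± 0.29) and the HIF prolyl hydroxylase EGLN3 (1.93 ± 0.51), with edgeR adjusted p from 0.490 to 0.718. Between the HIF-1α re-expressing and the HIF-2α overexpressing cells they were BNIP3 (2.59 ± 0.52), VLDLR (1.13 ± 0.27), NDRG1 (-1.64 ± 0.40) and RPTOR (-0.98 ± 0.24), with edgeR adjusted p from 0.0763 to 0.117.

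With the block, the lists of synthetases, folding genes and eIF2α kinases with their regulators had no call in any comparison, and the genes named next were chosen after their values were seen. After HIF-1α re-expression the bZIP and ATF4-regulated list had 1 call (VLDLR), the serine and one-carbon list 1 (ALDH1L2, a mitochondrial folate enzyme, 2.33 ± 0.45 on the log2 scale, SE), the mTORC1 list 1 (SESN3, 2.42 ± 0.60) and the HIF targets 3 (CA9, KDM3A and P4HA1), all higher, with edgeR adjusted p from 0.0357 to 0.0455. SESN3 was low and uneven, at 2.68 ± 2.89 CPM (SD, n = 3) in the HIF-1α re-expressing cells and 0.47 ± 0.43 in the control cells. After HIF-2α overexpression the single call was EGLN3, at 1.83 ± 0.26 (log2, SE, edgeR adjusted p = 0.0372). Between the HIF-1α re-expressing and the HIF-2α overexpressing cells, VLDLR, NUPR1, ALDH1L2, BNIP3 and CA9 were higher in the former. SLC6A9 (-1.55 ± 0.30, log2, SE), RPTOR, EGLN3 and NDRG1 were lower. NUPR1, a stress-induced nuclear protein, differed by 2.29 ± 0.43. Of these genes NUPR1, ALDH1L2 and SLC6A9 were also called between rounds, highest in round 1, and EGLN3 was called lowest in it.

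Peaks of the 7 ChIP-seq lists were assigned to a gene where the midpoint of the 2500 bp window lay within 10 kb of an annotated start site. The lists hold positions only, without a score, and with 1 library per condition there is no test. For HIF-1α in the re-expressing cells 6 of the 10 genes had a peak (34.8% of tested genes placed on the annotation), namely DDIT3, DDIT4, TRIB3, CHAC1, SESN2 and PSAT1. HIF-1β gave 5 in the control cells (25.9%), 5 in the HIF-1α re-expressing cells (40.9%) and 2 in the HIF-2α overexpressing cells (16.3%). HIF-2α gave 2 in the control cells (5.31%), 1 in the HIF-1α re-expressing cells (4.22%) and 4 in the HIF-2α overexpressing cells (14.7%).

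DDIT4 had a peak in 6 of the 7 lists, all but that of HIF-2α in the HIF-1α re-expressing cells. The promoter stretch printed above lay wholly inside the window in 3 of them, for HIF-2α in the control cells (chr10:74032295-74034794) and for HIF-1β in both virus-expressing pools. The HIF-1α window (chr10:74034095-74036594) began downstream of that stretch, with its midpoint 1.57 kb from a start site.

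TRIB3 had a peak in all 7 lists, but not at the same place. HIF-1α had its window at chr20:360828-363327, across the promoter windows of RefSeq, with its midpoint 0.137 kb from a start site. HIF-2α of the overexpressing cells had its window at chr20:341749-344248, at an upstream start site of the annotation, and HIF-2α of the control cells had its nearest window within the gene at chr20:370469-372968, with the midpoint 9.78 kb from a start site.

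DDIT3 had a peak in 4 lists, PSAT1 in 3, ATF4 in 2, and CHAC1, SESN2 and PHGDH in 1 each. The HIF-1α window at CHAC1 (chr15:41244033-41246532) held the response element printed above. That of PHGDH (chr1:120188371-120190870), for HIF-2α in the overexpressing cells, lay at a far upstream start site and outside the promoter window of RefSeq. ASNS and SLC7A11 had no peak within 10 kb in any list. Both were among the 6 genes that differed between rounds, and the other 4 had a HIF-1α peak. Of the genes that did not pass that test, DDIT4 and TRIB3 also had a HIF-1α peak and ATF4 had none.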

How the data were processed

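RNA-seq and ChIP-seq of 786-O pools were used as deposited. Per the submitters' processing notes and the methods, the authors trimmed reads (Trim Galore 0.3.3), aligned RNA reads to GRCh37 with TopHat2 2.0.8b and Bowtie 1.0.0, counted uniquely mapped reads on UCSC genes with HTSeq 0.5.4p3 and deposited raw counts per gene, with replicates apart. The deposited ChIP-seq positions are peak windows from 1 library each, without scores, so that their depth is unknown. The ChIP-seq signal was not used here.

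Counts of 9 libraries (27852754 to 54287621 each) were fitted in R 4.3.3 with edgeR 4.0.16 (TMM, filterByExpr with a minimum count of 10, quasi-likelihood test, Benjamini-Hochberg adjustment, threshold 0.05). At this depth the spread between libraries limits precision for all genes but PHGDH. Pools were compared with the pool as the only term, and rounds with pool and replicate number. Replicates of a pool differed by more than sampling noise. Same-numbered libraries of different pools deviated together (9 pairs, r from 0.385 to 0.647, against -0.436 to 0.0190 for 18 other pairs), so that the numbers pair the libraries, and a block on the number was an alternative. Others were DESeq2 1.42.0, RLE factors, no filter, fewer libraries, and 5 or 50 kb for peaks. Of the tested genes, 12877 were placed on GENCODE v44 (GRCh37) by current or older symbol. Methods were tested on simulated data.

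The members and lists were chosen with earlier results of these data known. All members are named, with up to 4 list genes per comparison by smallest p and 5 genes by likeness. The list gene CASTOR1 was not in the table.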

Additional observations from a re-analysis of the deposited data

How the results depend on the processing

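The count of genes of the group called between rounds was 6 in the reported fit and under DESeq2, RLE factors and no pool term. It was 7 without a filter on low counts and 6 to 7 with a library left out. The gene added without the filter was PHGDH (edgeR, adjusted p = 0.0393). Its 25 counts were all in round 1, 19 of them in library 1 of the HIF-1α re-expressing cells. None of the 9 was called between pools under any alternative without the replicate block. With the replicate block, leaving libraries out gave 0 to 1 calls for HIF-1α re-expressing against control cells (DDIT4, without control replicate 1) and 0 in the other comparisons and with all 3 libraries of any round left out, settings chosen after seeing the data. Counts of all genes called moved more: 1132, 38 and 843 with the replicate block and 753, 65 and 649 by DESeq2, against 0, 0 and 7, and 82 in the last comparison without a filter. Between rounds they were 2190, 406 without the pool term and 3963 by DESeq2. The replicate block changed no call among the 9 genes.

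Directions near 0 turned. For HIF-1α re-expressing against control cells, CHAC1 was 0.02 on the log2 scale and -0.045 with the replicate block, -0.0072 by DESeq2, -0.000445 with RLE factors, -0.0017 without a filter and -0.0045 with only the 6 libraries compared. PSAT1 in the HIF-2α overexpressing cells was -0.11 with the replicate block. SESN2 between HIF-1α re-expressing and HIF-2α overexpressing cells was -0.25 with the replicate block, -0.016 by DESeq2, -0.0095 with RLE factors, -0.012 without a filter and -0.0024 with only the 6 libraries compared. The cause was not tested.

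With each library left out in turn and no block, log2 differences of HIF-1α re-expressing against control cells ranged from -1.34 to 0.80 in ASNS, -1.79 to 1.63 in CHAC1, -0.88 to 1.26 in DDIT3, -1.51 to 0.66 in PSAT1, -1.28 to 0.64 in SESN2 and -1.09 to 1.93 in SLC7A11. For HIF-2α overexpressing against control cells they ranged from -0.98 to 1.01 in ASNS, -0.24 to 0.086 in ATF4, -2.21 to 1.27 in CHAC1, -0.96 to 0.89 in DDIT3, -1.22 to 0.95 in PSAT1, -0.77 to 0.64 in SESN2, -1.07 to 1.44 in SLC7A11 and -0.17 to 0.46 in TRIB3. Between HIF-1α re-expressing and HIF-2α overexpressing cells they ranged from -1.38 to 0.80 in ASNS, -1.44 to 2.20 in CHAC1, -0.55 to 0.98 in DDIT3, -0.16 to 0.39 in DDIT4, -1.62 to 1.03 in PSAT1, -0.97 to 0.44 in SESN2 and -1.40 to 1.84 in SLC7A11. A library of round 1 left out of such a fit leaves the pools with unequal rounds.

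Genes with a HIF-2α peak numbered 0 within 5 kb and 2 within 50 kb in the HIF-1α re-expressing cells, against 1 within 10 kb, and 1 within 5 kb in the control cells, against 2.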
